A study of Mus musculus with 4 samples.

Results

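The array carried 16194 probes that the files name by a stretch of the genome (chromosome, start, end and strand on the mouse mm9 build) and by no gene symbol, 29.1% of the 55681 non-control probes. They were taken by that name alone, on the rule that the systematic name starts with lincRNA or with chr, and no measured value entered the choice. All of the names found were intervals and 0 began with lincRNA, so the label of large intergenic noncoding RNA rests on the form of the name. Whether a given interval lies between genes, inside one or over an untranslated region was not analysed here, since no mm9 annotation was at hand. They are therefore called interval probes throughout. The probe sequences were not used here and none is printed.

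Large intergenic noncoding RNAs are transcripts that run between protein-coding genes and hold no long open reading frame. Many are transcribed by RNA polymerase II, spliced and polyadenylated, are less abundant than messenger RNAs and are found in few cell types. Mouse catalogues of such loci were first drawn largely from histone marks of active promoters and transcribed bodies, which give the extent of a transcribed domain but not its strand.

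The 4 two-colour arrays compared RNA from mouse fetal liver lines transformed by p185 BCR-ABL1, a fusion tyrosine kinase of acute lymphoblastic leukaemia. Every line carried the transgene and came from a mixed C57BL/6J x CD-1 background. The R/R lines were homozygous for knock-in substitutions in Cdk4 (R24C) and Cdk6 (R31C), cyclin D-dependent kinases that these changes are known to make insensitive to INK4 inhibitors, and the WT lines had neither change. R/R clones 1, 2 and 3 were each set in Cy5 against a WT pool in Cy3, and an R/R pool in Cy3 was set against the WT pool in Cy5. All were spontaneously immortal clones in RPMI 1640, sampled while cycling asynchronously, with RNA integrity numbers of 9.8 to 10.0 and 100 ng of RNA labelled. What the pools held is not stated, the clone identifiers of clones 1 and 2 share a stem, and nothing says whether the clones came from separate embryos. The WT side is the same pool on every array and adds no biological spread of its own. The p-values below measure the spread between the 3 R/R clones, with the technical spread of both channels, and no spread between WT lines. The R/R pool is the only sample with its dyes swapped. The fit therefore assigns its difference from the clones to dye, and no SE or p-value measures that difference. Ratios are R/R over WT on the log2 scale, with the sign turned on the array of the R/R pool.

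All 10 of 10 B-lineage marker genes were well above background in both genotypes, with summed processed signals of 136656 to 228545 in the R/R and 137261 to 160036 in the WT channels. Of 4 erythroid and 4 hepatocyte markers 0 passed in either genotype, while 2 of 4 T-lineage and 3 of 5 myeloid markers passed in both. In WT 1 of 3 megakaryocyte and 2 of 3 stromal markers passed, and in R/R 0 and 1. No marker probe was called different. The 4 probes of Cdk4 and Cdk6 were detected and not called, and point mutations need not alter them. Because these are bulk samples, fewer cells of a type and less RNA per cell cannot be told apart.

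The interval probes covered 4610 combinations of interval and strand, which fell on 3543 intervals of 20 chromosomes. Overlapping intervals on a strand merged into 3365 loci. Interval length had a median of 7304 bases, with quartiles of 786.5 and 21807 bases and extremes of 62 and 7128487 bases. Each combination of interval and strand held a median of 3 probes and at most 10, each spotted 1 time, and 690 held 1. In all 8171 probes were named for the forward strand, 8010 for the reverse strand and 13 for no strand. The design thus asked about both strands of 1067 intervals, the forward strand alone of 1251 and the reverse strand alone of 1222. Probes of an interval share a target and are not replicates of it.

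Detection was read from the scanner software's flag for a spot well above background. In the WT channel 35.9%, 33.9%, 33.3% and 36.4% of interval probes passed on the arrays of clone 1, clone 2, clone 3 and the R/R pool, against 53.5% to 55.3% of all other probes. In the R/R channel 30.6% passed in clone 1, 41.0% in clone 2, 25.4% in clone 3 and 27.9% in the R/R pool, against 48.9% to 57.9% of the others. Interval probes were detected less often than other probes in each of the 8 channels. Clone 2 had the highest share and clone 3 the lowest, and the other probes kept that order.

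**Figure D1:**
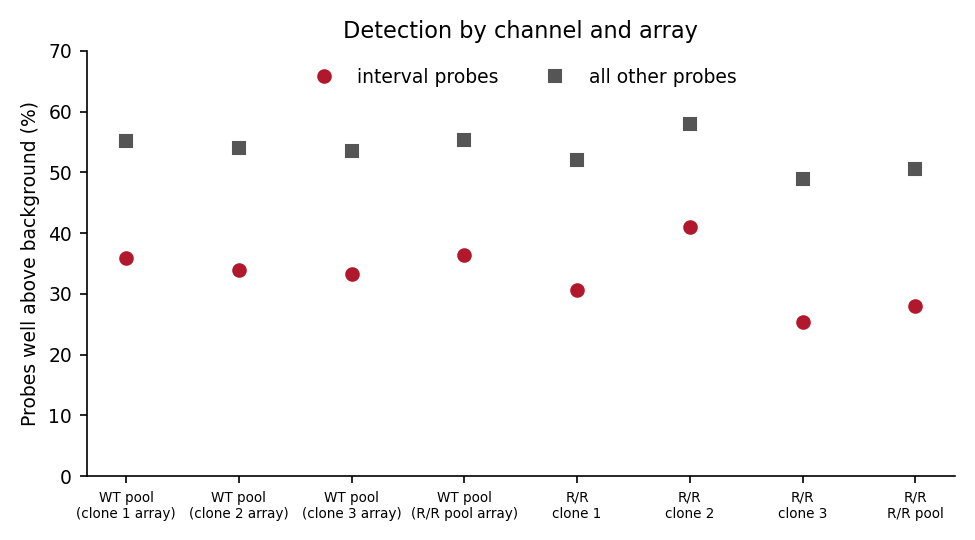
Share of probes well above background (y axis, percent) in each of the 8 channels (x axis: the WT pool on 4 arrays, then the R/R clones and pool), for 16194 interval probes (circles) and 39487 other probes (squares), 1 value per channel with no error. Interval probes lie between 25.4% and 41.0% and other probes between 48.9% and 57.9%.

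A probe was kept for comparison where the flag was set in either genotype's channel on 3 or more of the 4 arrays. That left 5313 interval probes (32.8%) and 21136 others (53.5%). Of the 5313, 4224 passed in both genotypes, 967 in WT alone and 122 in R/R alone. Complete absence of the flag in the dimmer genotype was rare: 56 probes passed in WT with no R/R channel above background, and 9 passed in R/R with no WT channel. Neither split was counted over the other probes. Their R/R channels passed in 52.0% (clone 1), 48.9% (clone 3) and 50.5% (pool), under the 53.5% to 55.3% in WT, and in 57.9% (clone 2). At the edge of the rule, 635 probes passed on exactly 3 arrays in their better channel, with a median WT processed signal of 25.8. A further 734 passed on exactly 2 and were not kept, with a median of 20.8. In no channel at all were 8495 interval probes (52.5%) well above background, against 37.2% of the others.

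Detected probes were found in many of the intervals. At least 1 probe was kept in 2136 intervals (60.3%) and in 2650 combinations of interval and strand (57.5%). Where a combination had at least 2 probes (3920 of them), all were kept in 474, some in 1889 and none in 1557. A partly detected combination was therefore the commonest case. Whether kept probes gather in the same combinations more than an even scatter would give was not tested. The share of interval probes kept ranged from 23.8% on chromosome 9 to 42.8% on chromosome 5.

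The interval probes were dim. The processed signal is the scanner software's background-subtracted, dye-normalised brightness in arbitrary units, averaged here over the 4 hybridisations of the WT pool. Its median was 11.2 over all interval probes and 63.2 over the kept ones, of which the middle 80% lay between 27.3 and 456. The kept other probes had a median of 306, and 711 kept interval probes (13.4%) exceeded it. Above a signal of 1000 lay 279 interval probes (5.25%, against 31.03% of the kept others), in 184 combinations of interval and strand, and above 10000 lay 41. None was saturated. Brightness depends on the probe as well as on the transcript, so these values describe spots and rank no transcript.

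The 6 brightest interval probes lay in 6 intervals, and none was called different between genotypes. A_30_P01026458 at chr11:22681800-22707775 on the reverse strand had a WT signal of 77916 ± 4261 (SD, 4 hybridisations of 1 pool) and a fitted log2 ratio of 0.14 ± 0.09 (SE). On the single arrays it had 0.39, 0.32 and 0.48 in clones 1, 2 and 3 and -0.11 in the R/R pool. A_30_P01021243 at chr17:48068261-48087905, forward, had 69178 ± 5538 and a ratio of -0.04 ± 0.09. That value averages opposite signs, with 0.16, 0.16 and 0.23 in the clones and -0.27 in the dye-swapped pool. The SE of either probe takes in no difference between clones and pool. A_30_P01031448 at chr14:78924115-78938125, forward, had 60011 ± 5247 and a ratio of 0.25 ± 0.15. The fitted ratios of these 3 probes were under 3 standard errors from 0. A_30_P01030669 at chr7:108209996-108216032, reverse, had 59768 ± 3296 and a ratio of -0.12 ± 0.11. A_30_P01022075 at chr17:17481706-17482457, reverse, had 55848 ± 3746 and a ratio of 0.18 ± 0.09. A_30_P01020276 at chr12:119825125-119850750, forward, had 47413 ± 2927 and a ratio of -0.23 ± 0.09. The limma adjusted p of the 6 ran from 0.312 to 0.85.

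Bright probes did not always have bright neighbours in their own interval. In the chromosome 14 interval, 4 of 7 forward probes were kept, and their WT signals ran from 35.6 to 60011. The chromosome 17 interval at 17481706 to 17482457 was even by comparison: its 3 probes had WT signals of 21108 to 55848, and all 3 were above 0 on all 4 arrays, with fitted ratios of 0.18 to 0.31. A longer interval on the same strand encloses it, chr17:17462450-17488725, and 0 of its 5 probes were kept.

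Both strands of an interval were often detected. Of the 1067 intervals probed on both strands, 514 (48.2%) had a kept probe on each, 393 (36.8%) on 1 strand (176 forward, 217 reverse) and 160 (15.0%) on neither. Detection on both strands was thus the commonest outcome, where 1 kept probe was enough for a strand. In the 514 intervals the brightest probes of the opposite strands differed in WT signal by a median of 2.87-fold. The difference was 10-fold or more in 94 of them. Over all probes, 31.2% of forward and 34.4% of reverse probes were kept. The probe labelling used a T7 primer on the RNA, per the labels, and how far a spot reads its named strand alone was not tested.

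The interval with the brightest dimmer strand was chr12:73838608-73862621, where kept WT signals reached 16331 on the forward and 26819 on the reverse strand. At chr17:39960567-39992817 all 4 forward probes (4105 to 25538) and all 5 reverse probes (2616 to 9324) were kept, with median fitted log2 ratios of 0.26 and 0.02. At chr5:35975265-35982561 the 4 forward probes had a median of 0.30 and the 4 reverse probes 0.03. Of these 3 intervals, none held a called probe. The remaining intervals that the naming rule took were chr14:33923944-34003394, with medians of -0.23 forward and -0.38 reverse, and the chromosome 11 and chromosome 7 intervals of the brightest probes.

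The interval probes as a set had median log2 ratios near 0. The median was -0.03 in clone 1, 0.02 in clone 2, -0.05 in clone 3 and -0.04 in the R/R pool, where all other kept probes had 0.01, 0.00, -0.01 and -0.01. The fitted median was -0.03, with 3127 of 5313 (58.9%) below 0, against -0.01 and 52.4% over all 26449 kept probes. It ran from -0.08 to -0.00 over the other settings tried. Fitted values ranged from -1.12 to 1.05 and had an SD of 0.16, against 0.27 for the others. The shift differed with brightness: from the dimmest to the brightest of 5 equal bands of WT signal, the medians of interval probes were -0.00, -0.02, -0.03, -0.05 and -0.06. Those of the other probes in the same bands were 0.02, -0.01, -0.00, -0.02 and -0.01. By chromosome the fitted medians lay between -0.08 and 0.01.

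**Figure D2:**
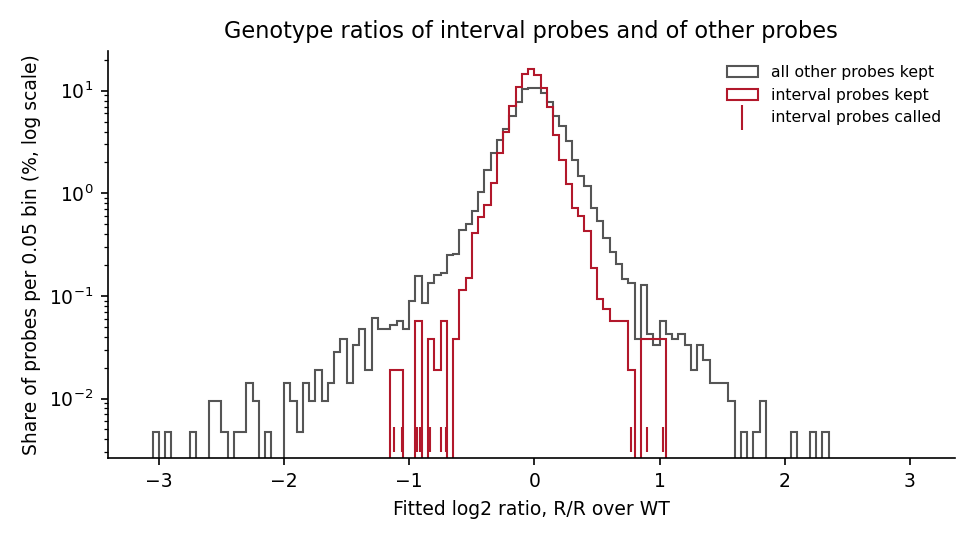
Fitted log2 ratio, R/R over WT (x axis), of 5313 kept interval probes and 21136 other kept probes, as the share of each set per bin of 0.05 (y axis, percent, log scale), with ticks at the 10 called interval probes. Interval probes run from -1.12 to 1.05 and spread less (SD 0.16) than the others (SD 0.27).

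A probe is called where its limma adjusted p, over all kept probes of the array, is under 0.05. Over the array 155 of 26449 kept probes were called, 0.586%, with 0.185% higher and 0.401% lower in R/R. Of the 5313 interval probes 10 were called (0.188%), 3 higher and 7 lower, a share below that background. All 7 called lower passed the detection rule through the WT channel, where they are high, and of the 3534 probes above background in both channels on all 4 arrays 3 were called higher and 0 lower, so the split between directions depends on the filter. At a fold of at least 1.5 were 33 interval probes (0.621%, against 2.93% of all kept), 339 (6.38%, against 14.9%) had an unadjusted p under 0.05, and 20 (0.376%, against 1.42%) an adjusted p under 0.10. The same sign on all 4 arrays was seen in 1143 interval probes (21.5%, background 30.1%): 448 higher (background 14.6%) and 695 lower (background 15.5%). Each of these shares was under that of the array, as was the spread of the ratios. Interval probes are dimmer, and the offset of 50 added to each channel shrinks dim ratios. By band of WT signal, dimmest first, their SD was 0.11, 0.11, 0.13, 0.17 and 0.23 (others 0.21, 0.17, 0.21, 0.24 and 0.30). In band 4, 7 of 1062 were called (others 18 of 3094). In bands 1, 2, 3 and 5 it was 1, 1, 0 and 1. The others there had 7 of 1844, 2 of 1674, 12 of 2310 and 106 of 12214. The remaining shares were not split by brightness. The 10 called probes fell in 4 intervals, each on 1 strand.

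Without the array of clone 1, 0 interval probes were called by limma. Over all 26449 kept probes 16 were called higher and 59 lower there, against 49 and 106 with all arrays. The fitted sizes of the 10 moved by at most 0.027 log2 units, while their SE, 0.090 to 0.101 with all arrays, became 0.128 to 0.139, and adjusted p was 0.0566 to 0.150. In that fit 58 interval probes higher and 112 lower had an unadjusted p under 0.05, against 114 and 225 with all arrays. With median centring in place of loess 0 interval probes were called too. Sizes of the 10 were within 0.069, with SE of 0.123 to 0.157 (adjusted p of 0.0996 to 0.272). Over all kept probes 3 were called higher and 29 lower. Of the interval probes 50 higher and 96 lower had an unadjusted p under 0.05. These unadjusted counts were not made over all kept probes. Leaving out clone 3 gave 8 interval probes called higher and 10 lower, against 117 and 229 over all kept probes. In every setting that tested them the 10 probes kept their direction.

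The lowest fitted log2 ratio was on the forward strand of chr17:38132217-38157667 (25451 bases). With the scanner software's ratios the lowest called probe was instead A_30_P01022698 on chromosome 2 (-3.97). A_30_P01021320 had log2 ratios of -1.32 in clone 1, -1.11 in clone 2, -1.42 in clone 3 and -0.96 in the R/R pool, fitted as -1.12 ± 0.10 (limma adjusted p = 0.0247). A_30_P01031377 had -1.15, -0.97, -1.03 and -1.06, fitted as -1.06 ± 0.09 (adjusted p = 0.0226). A_30_P01023816 had -0.91, -0.68, -0.90 and -0.66, fitted as -0.75 ± 0.10 (adjusted p = 0.0489). R/R was lower on each array, with clone 2 nearest to WT among the clones for all 3 probes. The WT processed signal of A_30_P01021320 was 142, 160, 169 and 130 on the 4 arrays, and that of R/R was 11.3, 31.9, 11.9 and 13.1. The channels did not overlap. R/R was well above background on 1 of 4 arrays for the first 2 probes and on 2 of 4 for the third, so the fitted folds have a dim side. With the scanner software's own ratios the same probes read -3.29, -3.04 and -1.97 and were not called (adjusted p = 0.106, 0.132 and 0.182). The offset of 50 added to each channel here makes the fold of a dim spot smaller.

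The other 3 kept probes of that strand lay nearer 0. A_30_P01031739 had -0.43 ± 0.09 and A_30_P01023540 had -0.38 ± 0.10 (adjusted p = 0.132 and 0.183), and both had WT signals near background, 30.1 and 29.3. A_30_P01028561 had 0.01 ± 0.09 with both genotypes detected on 4 arrays. Probes of the interval therefore did not move as a block. On the opposite strand 1 of 9 probes was kept, A_30_P01019227, at -0.00 ± 0.11.

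On chromosome 2 all 5 reverse-strand probes of chr2:143988645-143993945 (5301 bases) were kept and 4 were called lower. A_30_P01030351 had -0.69, -0.83, -0.87 and -1.09 in clones 1, 2 and 3 and the pool, fitted as -0.94 ± 0.09 (adjusted p = 0.0296). A_30_P01022698 had -0.84, -1.08, -0.85 and -0.90, fitted as -0.91 ± 0.10 (adjusted p = 0.0362). A_30_P01026648 had -0.84, -0.96, -0.99 and -0.74, fitted as -0.84 ± 0.09 (adjusted p = 0.0368). The samples were close to each other, and the order of the clones differed from probe to probe. A_30_P01030653 had -0.68, -0.84, -0.70 and -0.67, fitted as -0.70 ± 0.09 (adjusted p = 0.0489). A_30_P01033573, the fifth probe, had -0.59 ± 0.09 and was not called (adjusted p = 0.0694). All 5 were below 0 on all 4 arrays.

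R/R lay near background over this stretch. For A_30_P01022698 the WT signal was 83.4, 104, 96.0 and 104, and R/R was 5.67, 4.02, 7.35 and 7.28, not well above background on any array. With the dim side set to the lowest signal that still carried the flag, WT was at least 1.74-fold higher for A_30_P01022698 and at least 1.74-fold higher for A_30_P01026648, whose R/R channels were also all dim. For A_30_P01030351 R/R passed on 2 of 4 arrays and for A_30_P01030653 on 1. The scanner software's ratios were -3.14 for A_30_P01030351, -3.97 for A_30_P01022698, -3.26 for A_30_P01026648 and -2.16 for A_30_P01030653. Of the 4, A_30_P01026648 was not called there (adjusted p = 0.0766). The 2 kept probes of the opposite strand, of 5, stood at 0.14 ± 0.10 and 0.08 ± 0.09.

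The increases were on chromosomes 4 and 12. On the forward strand of chr4:89088538-89130181 (41644 bases), A_30_P01032393 had log2 ratios of 0.92, 1.05, 0.85 and 1.11, fitted as 1.02 ± 0.09, or 2.03-fold (adjusted p = 0.0247). Its R/R signal was 132, 149, 105 and 145 against 23.5, 28.0, 22.4 and 29.4 in WT. A_30_P01024160 had 0.76, 0.72, 0.56 and 0.87, fitted as 0.77 ± 0.09 (adjusted p = 0.0445). R/R was higher on all 4 arrays for both, with clone 3 the lowest and the pool the highest, and the channels did not overlap. The third probe, A_30_P01023551, had 0.60 ± 0.10 (adjusted p = 0.0857), with R/R above background on 4 arrays and WT on 0. With the scanner software's ratios A_30_P01032393 read 2.34 (adjusted p = 0.0358) and A_30_P01024160 1.95 (adjusted p = 0.0826).

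Other forward-strand intervals run nearby on chromosome 4. A_30_P01032359 at chr4:89048647-89066563 had 0.48 ± 0.09 (adjusted p = 0.115), again with WT above background on 0 arrays. The interval chr4:89032648-89133273 encloses both, and its 1 kept probe of 5, A_30_P01031740, had -0.01 ± 0.09. Overlapping intervals thus gave different values.

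The remaining called probe was the only 1 on the forward strand of chr12:16833551-16901804 (68254 bases). A_30_P01026205 had 0.88, 0.78, 1.00 and 0.90, fitted as 0.90 ± 0.09, or 1.86-fold (adjusted p = 0.0358). Its WT signals were 338, 330, 371 and 353 and its R/R signals 739, 659, 937 and 794, well above background in every channel and without overlap. None of 5 probes on the opposite strand was kept. Shorter intervals inside it on the forward strand, chr12:16838729-16839360, chr12:16840919-16841568 and chr12:16873410-16873872, had 5 kept probes with fitted values of -0.21 to -0.03. The increase was thus measured by a single probe.

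Across the 4 intervals the called strand held 17 probes, of which 15 were kept and 10 called. The opposite strand held 19 probes, of which 3 were kept and 0 called. In the 7 called-lower probes R/R passed on 2 arrays at most, whereas the 3 called-higher probes were detected in both genotypes on 4 of 4 arrays.

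**Figure D3:**
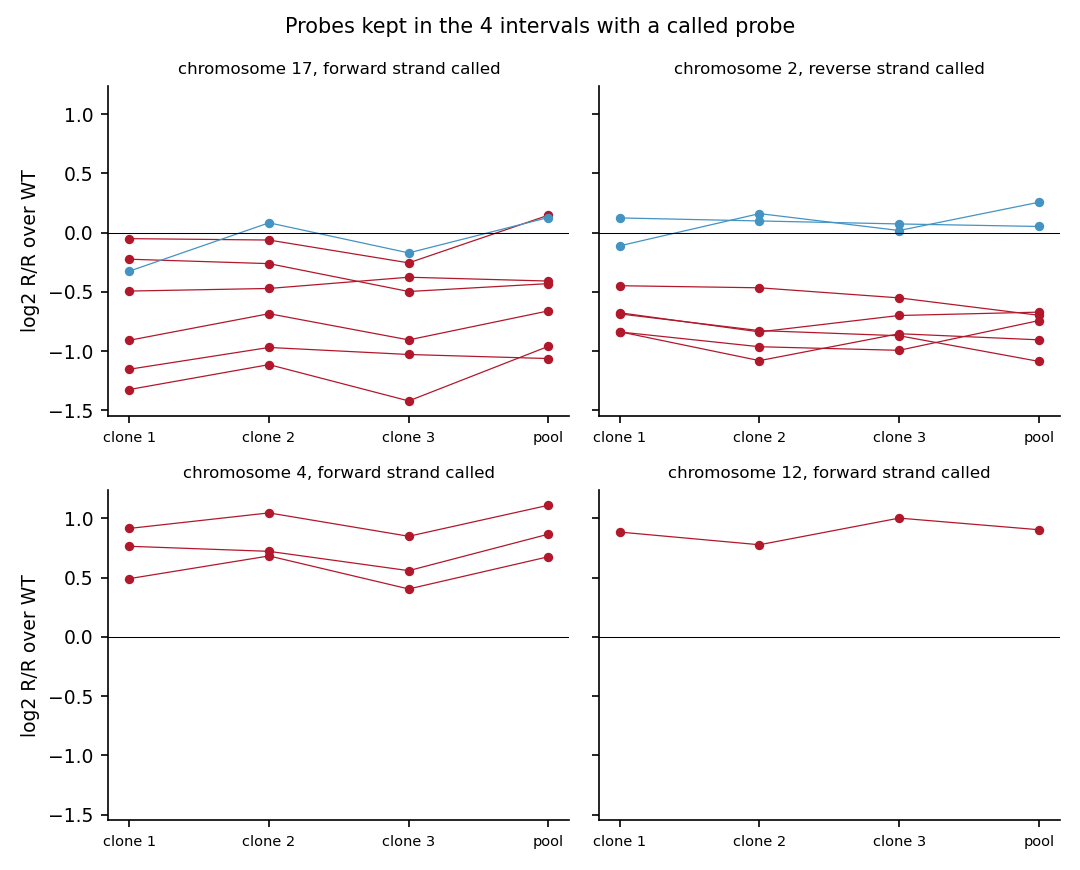
Log2 R/R over WT (y axis) on each array (x axis: clones 1 to 3 and the R/R pool) for the kept probes of the 4 intervals with a called probe; each line joins the 4 values of a probe and has no error bar, red for the called strand and blue for the opposite strand. Values on the called strand reach -1.42 on chromosome 17 and 1.11 on chromosome 4, while the 3 opposite-strand probes stay near 0.

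Probes with large values that were not called differed in how even the samples were. The highest fitted value belonged to A_30_P01031385 on the forward strand of chr5:74487385-74497428, with 0.80, 0.05, 1.93 and 1.17 in clones 1, 2 and 3 and the pool, fitted as 1.05 ± 0.33 (adjusted p = 0.241). A_30_P01026069 had 0.85, 0.43, 1.89 and 0.85 (0.95 ± 0.27), and A_30_P01024631 had 0.72, 0.64, 1.46 and 0.80 (0.87 ± 0.17). On the opposite strand A_30_P01025874 had 0.61, 0.31, 2.19 and 0.83 (0.94 ± 0.35). Clone 3 was the highest and clone 2 the lowest sample in each of these 4 probes. All 10 forward probes of the interval were kept and all were above 0, with a median of 0.41 and a range of 0.14 to 1.05. The 6 kept of 10 reverse probes were above 0 too, from 0.08 to 0.94. A shorter forward interval inside it, chr5:74489084-74491430, had 0 of 3 probes kept.

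A_30_P01021097 at chr5:149947200-149979950, forward, had the same order of samples: 0.75, 0.52, 1.65 and 0.98, fitted as 0.98 ± 0.22 (adjusted p = 0.15). It was the only kept probe of 4. A_30_P01018981 at chr7:13533925-13544525, forward, had 0.35, 1.24, 0.61 and 1.08 (0.91 ± 0.18, adjusted p = 0.119), with clone 2 the highest. With the scanner software's ratios it read 1.76 (adjusted p = 0.186), and it was called with clones 1 and 2 averaged (adjusted p = 0.0322). A_30_P01021097 and A_30_P01024631 were called without clone 3 (adjusted p = 0.0390 and 0.0388). Among the lowest values, A_30_P01019123 at chr17:95150800-95180650, forward, had -1.0, -0.62, -1.14 and -0.90, fitted as -0.91 ± 0.12 (adjusted p = 0.0585). A_30_P01017632 in the overlapping interval chr17:95149413-95174473 had -0.86, -0.61, -1.29 and -0.74 (-0.83 ± 0.14, adjusted p = 0.0992). A_30_P01019123 passed the threshold with scaling between arrays (adjusted p = 0.0479), on the clones alone (0.04999), with clones 1 and 2 averaged (0.0355), without clone 2 (0.0325), without clone 3 (0.0466) and with an intensity trend (0.0436). Both were bright, with WT signals of 4565 ± 241 and 2224 ± 179, and both were lowest in clone 3. The kept forward probes of these intervals and of chr17:95158347-95160942 were all below 0, from -0.91 to -0.15, as were the 3 kept reverse probes, at -0.21 to -0.02.

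Probes of an interval and strand gave similar ratios. In the 1347 combinations with at least 2 kept probes, the pooled SD of fitted ratios within a combination was 0.110, and the SD over the same 4010 probes was 0.164. For 1 pair of probes from each, Pearson's r was 0.53 and Spearman's rho 0.47 over 1347 pairs, with a median absolute difference of 0.080. Between opposite strands, r was 0.17 and rho 0.21 over the 514 intervals with both strands kept, with a median difference of 0.088. The difference between clone 3 and clone 1 had an r of 0.46 over the same-strand pairs. These correlations are across intervals on the same 4 arrays, which share RNA, dye and normalisation, and are given as a description.

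**Figure D4:**
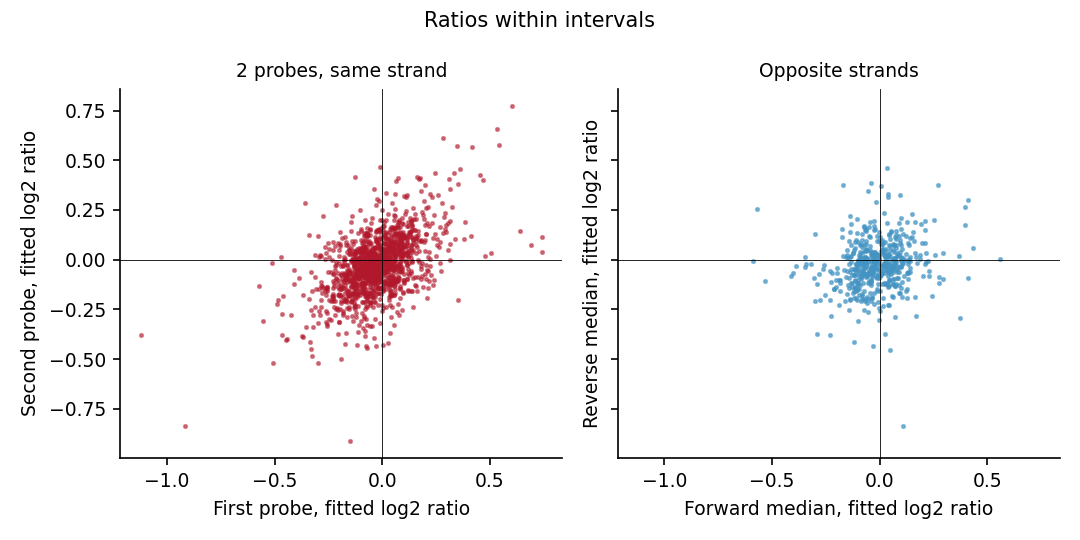
Fitted log2 R/R over WT of 2 probes of an interval and strand (left, 1347 pairs) and of the medians of opposite strands (right, 514 intervals), x and y axes in log2 units, 1 point per pair. The left cloud runs along the diagonal (r = 0.53) and the right one less so (r = 0.17).

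At least 3 probes were kept in 739 combinations of interval and strand. In 29 of them each kept probe had 1 sign on all 4 arrays: 8 higher, 20 lower and 1 with probes of both directions. No such count was made for sets of other probes. Taken singly, 8.43% of interval probes were higher and 13.1% lower on all 4 arrays, against 14.6% and 15.5% of all kept probes. Besides the called intervals of chromosomes 2 and 4, 5 sets are given here, named after their values were seen. The forward strand of chr15:92174226-92201201 had all 5 probes lower with a median of -0.50, and medians of -0.51, -0.48, -0.39 and -0.53 in clones 1, 2 and 3 and the pool. The overlapping chr15:92197603-92208534 had 3 of 3 lower with a median of -0.45. The reverse strand of chr1:52507332-52514490 had 3 of 4 probes kept, all lower, with a median of -0.40 at WT signals of 1562 to 2420. On the higher side the forward strand of chr13:76326228-76332632 had 5 of 5 with a median of 0.40, and chr6:116123643-116124550 had 3 of 3 at 0.27 with WT signals of 36236 to 45129. None of the probes in these 5 sets was called.

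Some of the sets with the most kept probes had a single sign, others did not, and the samples were not always even. Over all kept interval probes 58.9% of fitted values were below 0. On the forward strand of chr17:26911397-26917047 10 of 10 probes were below 0, with a median of -0.39, and clone 2 was nearest to WT (-0.14, against -0.53 in clone 1, -0.41 in clone 3 and -0.39 in the pool). On the reverse strand of chr19:53517903-53540753 10 of 10 were below 0, with a median of -0.43, and there clone 1 was nearest (-0.07, against -0.55, -0.60 and -0.44). The forward strand of chr4:129497990-129515290 had 10 of 10 just below 0 (median -0.06), with clone 2 at 0.32. The reverse strand of chr6:116092274-116144199 was divided, 5 above and 5 below 0. Of the remaining sets, chr10:126818382-126856582 reverse had 9 of 9 kept probes below 0 (median -0.10), chr2:158169020-158191295 reverse 5 of 9 (-0.08) and chr5:33174092-33200792 reverse 8 of 9 (-0.07).

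The clones differed from each other by more than the genotypes did at some intervals. Over the 3821 interval probes detected in R/R RNA of all 3 clones, the range between clones had a median of 0.31 log2 units (0.33 over 18569 other probes). It was 1 or more for 112 of them (2.93%, others 4.59%). The odd sample was clone 2 in 62 (38 above and 24 below the other clones), clone 3 in 44 (26 and 18) and clone 1 in 6 (2 and 4). Among the 853 other probes with such a range it was clone 3 in 385, clone 2 in 319 and clone 1 in 149. The R/R pool lay within the range of the clones in 106 of the 112, and in 814 of the 853 others. These probes were taken for their wide range, which makes that outcome likely beforehand. The pool had the sign of the clones' mean ratio in 82 of the 112 and in 728 of the 853. No test was run on single clones, each of which had 1 array. These probes fell in 83 combinations of interval and strand, of which 19 held at least 2 and together 48.

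The widest was A_30_P01030153 on the reverse strand of chr2:174088550-174109425, with -1.33 in clone 1, 1.05 in clone 2, 0.34 in clone 3 and 0.38 in the pool, a range of 2.38. Its 4 kept probes of 6 shared that pattern, with array medians of -1.23, 0.83, 0.13 and 0.30. On the opposite strand the medians of 4 kept probes were -0.51, 0.21, 0.03 and 0.09. Clone 1 was low and clone 2 high on both strands. The fitted values on the reverse strand were 0.02 to 0.20, so the genotype comparison did not show the spread.

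At chr17:34018371-34019394, reverse, clone 3 alone stood apart. A_30_P01023554 had 0.24, -0.12, -2.07 and 0.05, and array medians over its 3 probes were 0.26, -0.11, -1.91 and 0.05. The WT signals were 935 to 2305, well above background. Within a longer interval on that strand, chr17:33995525-34028025, 0 of 2 probes were kept. At chr13:24615451-24615973, forward, the medians of 3 probes were -0.98, 0.79, -0.79 and 0.04, and A_30_P01022557 had -1.41, 0.79, -0.94 and 0.19. Clone 2 was the high sample there and the pool lay near WT.

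At chrX:120976609-120977281, forward, A_30_P01033126 had -0.53, 1.64, -0.57 and 1.15, while the other 2 probes of the interval had clone 2 values of 0.60 and -0.08. Reverse-strand probes of 3 other X intervals, named after their values were seen, were also high in clone 2 and the pool. A_30_P01023002 at chrX:120812236-121038407 had -0.90, 1.21, -0.28 and 0.73. A_30_P01027114 at chrX:120353972-120361170 had -0.88, 1.11, -0.21 and 0.75, and A_30_P01021568 at chrX:120590872-120598071 had -0.84, 0.94, -0.14 and 0.64. Whether these probes share sequence was not tested.

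Further intervals where several probes agreed on an odd clone were named after their values were seen. The forward strand of chr10:117021051-117038683 had all 5 probes with a range of 1 or more and medians of 0.42, -0.10, -1.01 and 0.15, with clone 3 low. The reverse strand of chr14:20893694-20903726 had 4 such probes of 4 kept and medians of 0.04, -0.68, 0.61 and -0.14. The forward strand of chr9:121845920-121858120 had medians of 1.12, -0.72, -0.22 and 0.18 over 5 probes, with clone 1 the high sample.

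**Figure D5:**
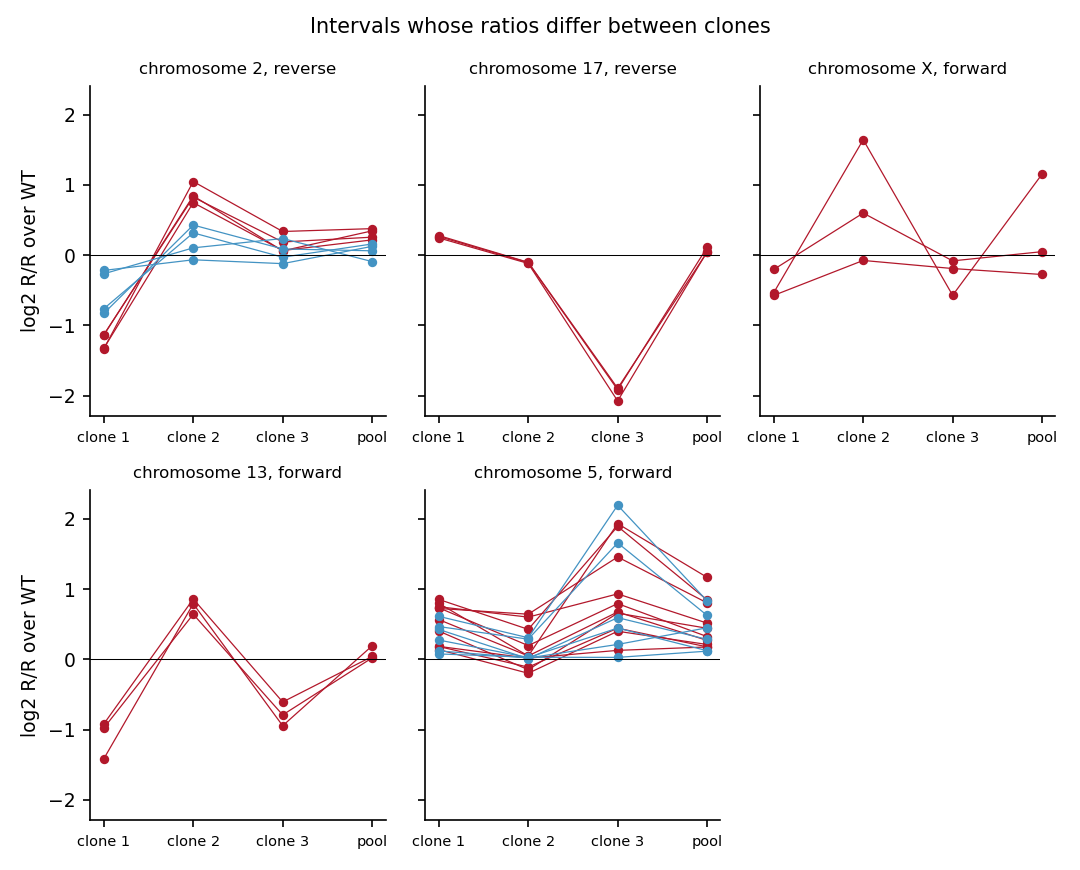
Log2 R/R over WT (y axis) on each array (x axis: clones 1 to 3 and the R/R pool) for the kept probes of 5 intervals named by their strand and chromosome; each line joins the 4 values of a probe and has no error bar, red for the named strand and blue for the opposite strand. Clone 3 falls to -2.07 on chromosome 17 and rises to 2.19 on chromosome 5, and clones 1 and 2 lie apart on chromosomes 2, X and 13.

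Long noncoding RNA genes that the array names by symbol were set beside the intervals as a list chosen with earlier results of these data known. Of 20 genes listed 12 were on the array and 11 were detected, through 39 kept probes with a median fitted ratio of -0.24, against -0.01 over all kept probes. Of these 39 probes 0 were called higher and 1 lower, beside 0.185% and 0.401% over the array. The called probe was that of Snhg1, a small nucleolar RNA host gene, at -0.66, -0.70, -0.98 and -0.82, fitted as -0.80 ± 0.10 (adjusted p = 0.0499). Larger values with wide spread between clones belonged to H19, an imprinted noncoding RNA, and Xist, the RNA that coats the inactive X chromosome. The 5 probes of H19 were fitted at -1.96 to -1.41 (adjusted p of 0.181 to 0.205), with -2.78 to -1.88 in clone 1, -3.12 to -2.29 in clone 2, -0.39 to -0.11 in clone 3 and -1.83 to -1.34 in the pool. The 7 probes of Xist were fitted at -2.71 to -0.65 (adjusted p of 0.209 to 0.303), with -4.58 to -0.83 in clone 1, -5.12 to -0.99 in clone 2, -0.48 to 0.24 in clone 3 and -2.15 to -0.77 in the pool, and R/R was well above background on 2 arrays at most. Clones 1 and 2 were thus low for both genes and clone 3 lay near WT. Over the other 27 probes of the list the median was -0.17. The list is weighted by genes with several probes, so its median describes probes and not genes.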

How the data were processed

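RNA from 3 R/R clones and an R/R pool was compared with a WT pool on 4 two-colour Agilent arrays. Median intensity of each spot and of its surroundings came from Feature Extraction 11.5.1.1, per the file headers (11.5 in the submitters' processing notes). The same files hold processed intensities, from which background was subtracted and dye bias removed, per the file headers. Ratios of processed Cy5 over Cy3 are on a log10 scale, per the file headers. The deposited log2 table has 59305 rows, as many as the non-control spots, whose numbers match no probe name. Its column medians were 0, 0.0040, -0.0011 and -0.0014 for clones 1, 2 and 3 and the pool, and by position its columns ran with the spot ratios computed here (r of 0.989 to 0.997, slopes of 0.975 to 1.01), so scale and direction could be read while the centring step stays unknown. Interval coordinates are those of the files, whose design header gives mm9.

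With limma 3.58.1 in R 4.3.3, intensities were corrected by normexp (offset 50) and normalised by loess within arrays, with control spots at weight 0. Between 210 and 265 outlier spots per array were left out. The 26449 probes flagged well above background in either genotype on 3 or more of 4 arrays were fitted with a genotype and a dye term, which weighs the clones' mean and the pool equally and leaves 2 residual degrees of freedom (1 for 4 of the interval probes kept, which lack a spot). These degrees of freedom come from the clones, since the dye term takes up the difference between pool and clones. P-values are two-sided and were adjusted by Benjamini and Hochberg's method over all 26449 probes. For a genotype not well above background on any array, a bound was computed with the dim side at the lowest signal carrying the flag. Precision is limited by having 4 arrays. The fit was checked on simulated data.

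The rule for named probes took those called; the 8 highest and 8 lowest fitted values of 1 sign whose brighter genotype was above background on 4 arrays; the 6 brightest; the 6 widest between clones; 6 intervals bright on both strands; and the 8 sets with the most kept probes. Some members the rule took are not reported here. Members, lists and rule were chosen with earlier results of these data known. Alternatives were the scanner software's ratios, offset 16, median centring, scaling between arrays, no or a stricter filter, a fit on the clones, a fit lacking the dye term, omission of each clone, averaging of clones 1 and 2, the brightest probe per gene or interval, a threshold of 0.1 and an intensity trend.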

Additional observations from a re-analysis of the deposited data

How the results depend on the processing

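The median log2 ratio of the interval probes stayed at or below 0 in each setting, and was -0.084 with the scanner software's ratios. Leaving out each clone in turn gave medians of -0.04 to -0.02, and counts of 0 to 8 called higher and 0 to 10 called lower, against 3 and 7. Over all 26449 kept probes these counts were 16 to 117 and 59 to 229, against 49 and 106. Without clone 1 both counts of interval probes were 0, at nearly the same fitted sizes and larger SE. Without clone 2, 2 of the 10 called probes lost the call (adjusted p up to 0.0619), as did 2 with clones 1 and 2 averaged (up to 0.0565) and 1 with the clones alone (0.0502). With the scanner software's ratios 6 lost it. Median centring called 0 interval probes in both directions, and 3 higher and 29 lower over the array. Without the dye term 32 interval probes were called higher and 61 lower, against 632 and 797 over the array. In that fit the pool counted as another replicate and the dye effect was not fitted. An intensity trend gave 5 and 14 (54 and 147 over the array), and an adjusted p under 0.10 gave 8 and 12 (129 and 247). Offset 16 gave 11 lower (110 over the array). The filter asking for both channels above background on all 4 arrays gave 0 lower (57 over the array), since it drops the 7. In that fit 97 interval probes higher and 167 lower had an unadjusted p under 0.05. The brightest probe per gene or interval and strand gave 2 lower (76 over the array), from fewer probes. Detection under the positive-and-significant flag rose to 10443 probes. The median WT brightness was 53.6 as spot minus local background. The median SD within an interval and strand was 0.16 with the scanner software's ratios, against 0.070. The SD over all kept interval probes rose too, to 0.38 from 0.16. No named probe that was called, or had 1 of the highest or lowest values, changed sign in any setting. Among uncalled probes near 0, A_30_P01021243 turned to 0.072 with the scanner software's ratios, 0.18 on the clones alone and 0.071 without the dye term, and A_30_P01030669 turned to 0.047 on the clones alone. Of the probes widest between clones, leaving out each clone in turn gave -0.45 to 0.094 for A_30_P01019819, -0.52 to 0.055 for A_30_P01023554 and -0.48 to 0.065 for A_30_P01028287, all above 0 without clone 3. It gave -0.49 to 0.058 for A_30_P01022557 (above 0 without clone 1) and -0.061 to 0.53 for A_30_P01030153 (below 0 without clone 2). Why the loess and median-centred counts differ was not tested.

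Precision is limited by 4 arrays, a WT pool without replicates, pools of unstated content and signals near background: the called decreases have R/R values above background on 2 arrays at most, so their size depends on the background correction. The deposited log2 table was not run as a setting because its row numbers match no probe. No paired analysis was possible because each array sets its R/R sample against the same WT pool, so no WT replicates exist to pair.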
